A study of Mus musculus with 12 samples.

Results

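The 30 genes described here make cholesterol and fatty acids or control and carry their products. They were chosen by name, and all 30 were found among the 42450 genes of the count table after the Ensembl identifiers had been matched to GENCODE mouse symbols. Of the 30, 6 encode the early mevalonate steps, 11 the squalene and sterol steps, 4 control or transport, 5 the synthesis of fatty acids and 4 the desaturation of fatty acids. All 30 passed the filter on low counts, as did 19410 genes in all.

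PolyA+ RNA was measured in E14tg2a.4, a male mouse embryonic stem cell (mESC) line that is wild type for *Srrm2*. The methods describe routine growth with the cytokine LIF in medium with fetal calf serum. The cells were then kept in serum-free ESGRO medium, also with LIF, before collection. The methods do not say how long each group was in this medium. In every group the cells were transfected with 50 nM siRNA, which targeted *Srrm2* (Srrm2-KD) or, as the control, luciferase of the firefly (Gl2-KD). Cells collected at 72 h were transfected again with the same siRNA 24 h after the first transfection. Time and number of transfections therefore changed together, and time in the medium may have changed with them. Each of the 4 groups has 1 library from each of experiments 1, 2 and 3, which gives 12 libraries of 73933196 to 153343831 estimated counts.

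Cholesterol is built from acetyl-CoA through mevalonate and squalene, and fatty acids are built from the same precursor through malonyl-CoA. The membrane-bound factors SREBP1 and SREBP2 (from *Srebf1* and *Srebf2*) switch on most of these genes when sterols run low, and INSIG1 holds the SREBPs back when sterols are plentiful. Dividing cells draw on both pathways for new membrane.

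All 8 markers of pluripotent mESC were at 62.4 CPM or more (counts scaled to the library's total and by TMM, a correction for differences in library composition) in all 12 libraries, with *Pou5f1* at 1149 to 1956 CPM. Some varied more over the libraries: *Klf4* ran from 62.4 to 234 CPM, *Tfcp2l1* from 149 to 590 CPM and *Dppa5a* from 859 to 3205 CPM. The 2 markers of hepatocytes, the main cholesterol-making cells of the liver, were at 0 in all libraries. The 4 markers of endoderm summed to 0.505 to 2.02 CPM and the 2 of trophoblast to 0.164 to 0.660 CPM. Those of mesoderm summed to 2.70 to 7.38 CPM, of fibroblasts to 3.89 to 24.5 CPM through *Thy1*, and of neural ectoderm to 7.79 to 36.1 CPM through *Pax6*. The targeted gene *Srrm2* had log2 fold changes of -1.22 at 24 h and -1.16 at 72 h (standard error 0.14 each), with lower values in all 3 experiments. In experiments 1, 2 and 3 it was at 911, 496 and 449 CPM in Gl2-KD and 517, 154 and 200 CPM in Srrm2-KD at 24 h. At 72 h it was at 962, 479 and 442 CPM in Gl2-KD and 461, 182 and 217 CPM in Srrm2-KD. Experiment 1 was highest in each group, and the groups overlapped at both times. The quasi-likelihood test of edgeR gave *Srrm2* adjusted p-values of 0.0663 and 0.0991, so the knockdown itself did not pass in the fit used here. The paper, with RNA processing day as the covariate, reported *Srrm2* as significantly lower at both times. It also reported less *Srrm2* transcript by qRT-PCR. In bulk RNA, fewer cells of a type and less RNA per cell cannot be told apart. Differences between libraries of unlike experiments were wide: 58.5% of the genes tested differed among the 3 experiments at an adjusted p below 0.05.

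Promoters of 23 of the 30 genes were in the RefSeq table (GRCm38.p6, 250 bases before to 50 bases after each start). They were searched on both strands for the sterol regulatory element (TCACNCCAC), the NF-Y box (CCAAT), the Sp1 box (GGGCGG) and the E-box (CACGTG). The sterol regulatory element in these letters was found in 1 of the 23 genes, *Hmgcs1*, and in 1.44% of all genes in the table. The NF-Y box was in 20 of the 23 and in 41.1% of all genes, the Sp1 box in 19 and in 38.2%, and the E-box in 4 and in 8.09%. These shares of all genes cover every gene with a promoter listed, whether or not it passed the filter on low counts here. Whether the difference is particular to these pathways was not tested. Stretches free of annotated exons are shown for 3 genes that stand for the patterns below, with every match in capitals: *Hmgcs1*, which had the smallest p in the test of whether the change over time differed among experiments, *Insig1*, which is called in the same test, and *Fasn*, which fell between 24 h and 72 h in Gl2-KD.
*Hmgcs1*, chr13:119690101-119690350, forward strand: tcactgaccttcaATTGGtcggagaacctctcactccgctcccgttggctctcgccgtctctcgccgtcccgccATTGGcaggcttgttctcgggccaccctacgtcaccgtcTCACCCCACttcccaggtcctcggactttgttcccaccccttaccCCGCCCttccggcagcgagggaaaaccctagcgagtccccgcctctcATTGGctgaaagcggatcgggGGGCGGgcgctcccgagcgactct
*Insig1*, chr5:28071162-28071362, forward strand: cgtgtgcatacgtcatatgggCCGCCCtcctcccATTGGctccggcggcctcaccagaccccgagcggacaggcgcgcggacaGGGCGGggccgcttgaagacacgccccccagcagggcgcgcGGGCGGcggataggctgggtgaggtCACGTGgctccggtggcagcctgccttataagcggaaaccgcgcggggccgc
*Fasn*, chr11:120824548-120824797, reverse strand: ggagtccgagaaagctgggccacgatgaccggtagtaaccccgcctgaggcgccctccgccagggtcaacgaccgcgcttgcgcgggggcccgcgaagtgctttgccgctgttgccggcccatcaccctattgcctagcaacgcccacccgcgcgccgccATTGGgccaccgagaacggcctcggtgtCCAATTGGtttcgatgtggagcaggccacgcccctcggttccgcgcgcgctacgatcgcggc
*Hmgcs1* held 1 sterol regulatory element, 3 NF-Y boxes and 2 Sp1 boxes in this stretch, *Insig1* held 1 NF-Y box, 3 Sp1 boxes and 1 E-box, and *Fasn* held 3 NF-Y boxes, 2 of which overlap on opposite strands. A match is a description of the letters and not a measured binding site.

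Levels between genes were compared per kilobase of annotated exon, averaged over the 12 libraries. The highest were *Scd2*, a stearoyl-CoA desaturase, at 122 CPM per kb, and *Acly*, which makes cytosolic acetyl-CoA from citrate, at 114 CPM per kb. *Hmgcs1*, the synthase that opens the mevalonate pathway, followed at 79.6 CPM per kb, then the isoprenoid genes *Fdps* at 55.7 and *Idi1* at 50.3 CPM per kb, and *Insig1* at 51.7 CPM per kb. The lowest were *Acss2*, which activates acetate, at 1.76 CPM per kb, and 3 genes of late sterol steps, *Hsd17b7* at 2.51, *Tm7sf2* at 3.03 and *Sc5d* at 3.95 CPM per kb. Between paralogues, *Scd2* was at 122 and *Scd1* at 29.9 CPM per kb, *Srebf2* at 32.0 and *Srebf1* at 13.3, and *Fads2* at 30.3 and *Fads1* at 9.17. The exon length is the union over all annotated isoforms, so genes with many isoforms are understated.

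**Figure D1:**
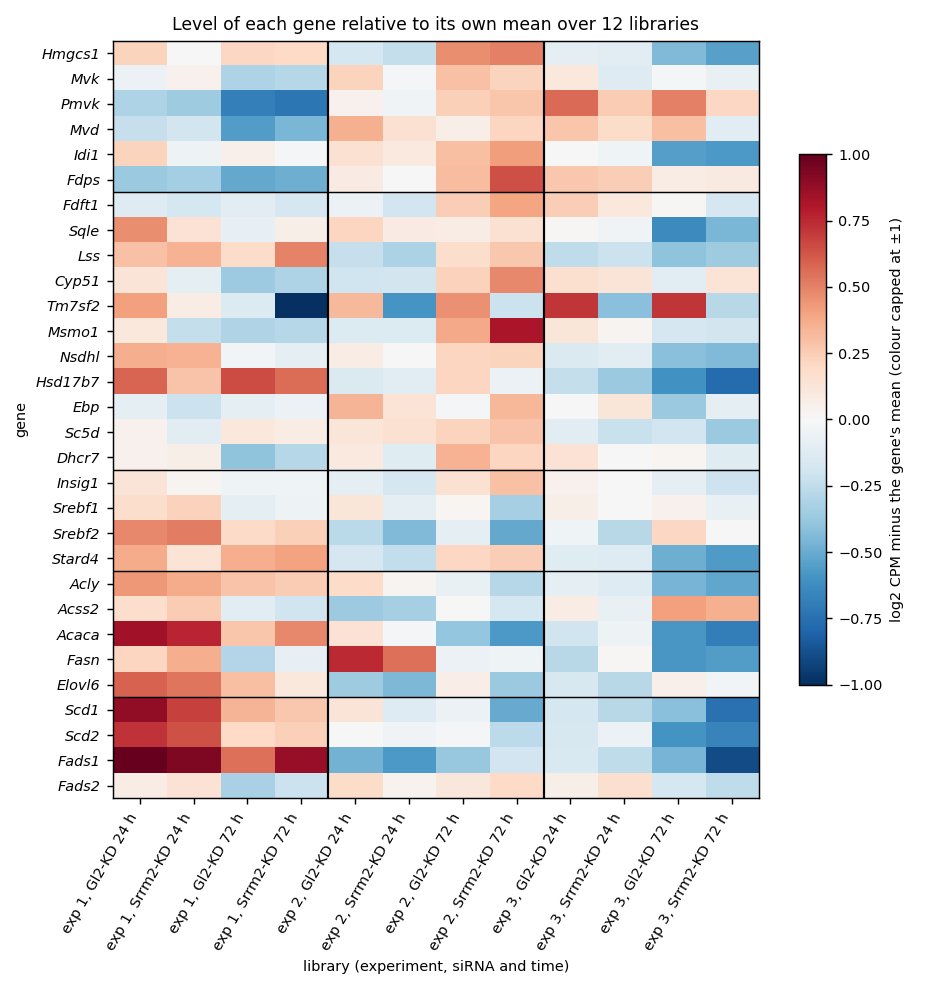
Log2 CPM of each of the 30 genes (rows, in 5 groups by role) minus the gene's own mean, in the 12 libraries (columns, by experiment, then siRNA and time), with red above and blue below the mean. The columns differ by experiment: *Acly*, *Acaca*, *Elovl6*, *Scd1*, *Scd2* and *Fads1* are highest in experiment 1 (*Fads1* averages 72.1 CPM there and 30.3 CPM in experiment 2), and the 17 mevalonate and sterol genes have their highest medians, 0.24 and 0.28, in experiment 2 at 72 h.

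To see whether the knockdown moved the pathway, Srrm2-KD was first compared with Gl2-KD at 24 h. None of the 30 genes passed the test, nor did any gene of the 19410 (0%). The 30 log2 fold changes ran from -0.74 to 0.07 with a median of -0.09, beside a median of 0.0054 over all genes tested. Of the 30, 27 were below 0, beside 9460 of the 19410 genes tested. All 30 values come from the same libraries, so they are not separate observations. By role, the medians were -0.11 for the 6 early mevalonate genes, -0.10 for the 11 squalene and sterol genes, -0.09 for the 4 genes of control and transport, -0.03 for the 5 fatty acid synthesis genes and -0.05 for the 4 desaturases. Standard errors ran from 0.09 to 0.26. At an unadjusted p below 0.05 the count in edgeR was 1 of 30, beside 2.62% of all genes, and DESeq2 and limma-voom called none of the 30. Lower values in all 3 experiments were seen for 12 of the 30 genes, beside 15.4% of all genes. The median was -0.01 without the Srrm2-KD library of experiment 2 and -0.15 without the Gl2-KD library of experiment 2, and ran from -0.12 to -0.05 without each other library or experiment.

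At 72 h, none of the 30 genes passed the test and again no gene of the table did (0%). The log2 fold changes ran from -0.85 to 0.22 with a median of -0.03, beside -0.02 over all genes. Of the 30, 18 were below 0, beside 10118 of the 19410 genes tested. At an unadjusted p below 0.05 edgeR counted 2 of 30, both lower, beside 12.9% of all genes. DESeq2 called 1 of the 30, beside 3.38% of all genes, and limma-voom none. With experiment and time combined into 1 block, so that siRNAs were compared within each experiment and time, edgeR called 1 of the 30, beside 3.73% of all genes. Of the 30, 6 were lower in all 3 experiments, beside 23.1% of all genes, and 6 others, *Cyp51*, *Ebp*, *Fasn*, *Fdps*, *Lss* and *Sqle*, were higher in all 3, beside 18.8% of all genes. The median by role was -0.03 for the early mevalonate genes, -0.02 for the squalene and sterol genes, -0.07 for control and transport, -0.10 for fatty acid synthesis and -0.03 for the desaturases. The median over the 30 genes became -0.16 when experiment 2 of Srrm2-KD was left out, 0.04 without that of experiment 3, 0.03 without the Gl2-KD 72 h library of experiment 2 and 0.01 without experiment 3 as a whole.

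*Tm7sf2* encodes the sterol C14 reductase, which acts between the CYP51 and MSMO1 steps. It had the smallest p of the 30 genes at both times. In experiments 1, 2 and 3 its level was 16.7, 15.7 and 20.5 CPM in Gl2-KD and 13.2, 8.33 and 9.35 CPM in Srrm2-KD at 24 h. At 72 h it was 11.4, 17.2 and 20.6 CPM in Gl2-KD and 6.0, 10.8 and 10.4 CPM in Srrm2-KD. The 3 Srrm2-KD libraries lay below the 3 Gl2-KD libraries at each time, and *Tm7sf2* was the only one of the 30 genes for which this held (1.55% of all genes at 24 h and 3.67% at 72 h). *Tm7sf2* differed by -0.74 at 24 h and by -0.85 at 72 h on the log2 scale (standard error 0.26 each), and neither value passed in edgeR (adjusted p = 1 and 0.226). These folds correspond to 59.7% and 55.4% of the Gl2-KD level. At 72 h *Tm7sf2* was called by DESeq2 (adjusted p = 0.0335), by edgeR with experiment and time combined into 1 block (adjusted p = 0.0258, which called 3.73% of all genes) and by edgeR with the 72 h libraries alone (adjusted p = 0.0252, 1.78% of all genes). Over the 25 other settings its log2 fold change at 72 h stayed between -1.10 and -0.65. The adjusted p over these settings ran from 0.0252 to 1.

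*Tm7sf2* is a reverse-strand gene at chr19:6062821-6068373 (GRCm38), and 532 bases of its exons are shared with *Vps51*, a vesicle tethering gene on the same strand, so its estimated counts are uncertain. The level of *Vps51* was 23.8, 28.6 and 32.7 CPM in Gl2-KD and 27.2, 25.3 and 28.5 CPM in Srrm2-KD at 24 h, and its groups overlapped at both times. At 72 h *Vps51* was at 23.6, 36.0 and 34.4 CPM in Gl2-KD and 21.3, 34.0 and 33.3 CPM in Srrm2-KD. On the log2 scale it differed by -0.05 at 24 h and -0.09 at 72 h, with a standard error of 0.14 each.

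*Scd1*, which puts the first double bond into saturated fatty acids, was second by p at both times. Its level was 256, 152 and 123 CPM in Gl2-KD and 223, 127 and 115 CPM in Srrm2-KD at 24 h, and 176, 133 and 104 against 168, 98.0 and 82.6 CPM at 72 h. It was lower in Srrm2-KD within each of the 3 experiments at both times, while the groups overlapped and experiment 1 was highest in each group. For *Scd1* edgeR fitted log2 differences of -0.19 ± 0.09 at 24 h and -0.28 ± 0.10 at 72 h (± standard error), neither of which passed (adjusted p = 1 and 0.268). For its paralogue *Scd2* the log2 differences were -0.01 and -0.10, each with a standard error of 0.11.

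The next genes by p at 24 h were *Sqle*, *Acly* and *Pmvk*, which encode squalene epoxidase, ATP citrate lyase and phosphomevalonate kinase. *Sqle* was at 172, 145 and 126 CPM in Gl2-KD and 138, 132 and 121 CPM in Srrm2-KD. *Acly* was at 794, 669 and 551 CPM in Gl2-KD and 761, 598 and 536 CPM in Srrm2-KD, and *Pmvk* at 42.7, 54.3 and 78.3 and at 41.3, 51.6 and 63.0 CPM. For each gene Srrm2-KD was the lower in 3 of 3 experiments, and the groups overlapped. The log2 fold changes were -0.17 (standard error 0.12) for *Sqle*, -0.09 (standard error 0.09) for *Acly* and -0.14 (standard error 0.15) for *Pmvk*, each with an adjusted p of 1 in edgeR's test.

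At 72 h the next by p were *Ebp*, a sterol isomerase, *Elovl6*, which lengthens C16 fatty acids, and *Srebf2*. *Ebp* was at 31.5, 33.6 and 26.2 CPM in Gl2-KD and 32.5, 42.6 and 31.8 CPM in Srrm2-KD. *Elovl6* was at 135, 115 and 113 CPM in Gl2-KD and 117, 84.6 and 107 CPM in Srrm2-KD. *Srebf2* was at 256, 209 and 259.6 CPM in Gl2-KD and 264, 157 and 224 CPM in Srrm2-KD. Srrm2-KD was above Gl2-KD in 3 of 3 experiments for *Ebp*, below it in 3 of 3 for *Elovl6* and below it in 2 of 3 for *Srebf2*, and the groups overlapped for all 3 genes. In that order edgeR gave log2 differences of 0.22 (standard error 0.12), -0.24 (0.15) and -0.20 (0.14), and none passed (adjusted p = 0.483, 0.529 and 0.570). *Srebf1* had a log2 fold change of -0.14 (standard error 0.10) at 72 h.

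**Figure D2:**
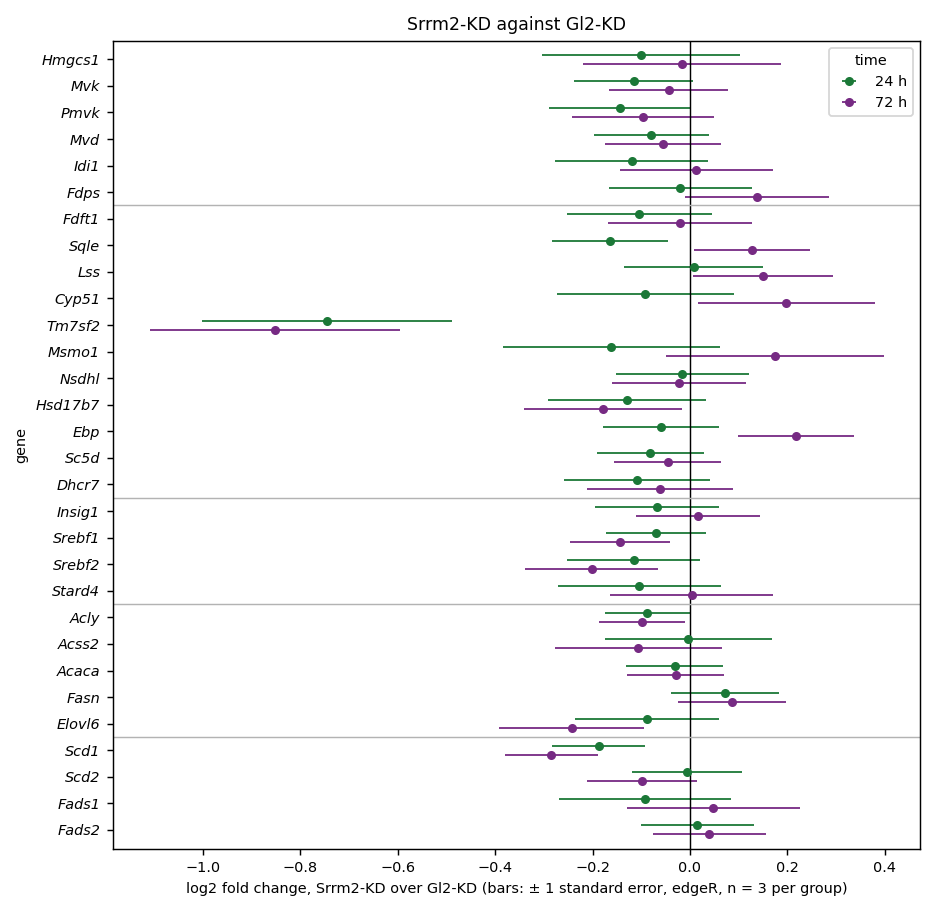
Log2 fold change of Srrm2-KD over Gl2-KD for each of the 30 genes (rows) at 24 h (green) and 72 h (purple), with bars of 1 standard error from edgeR and 3 libraries per group. *Tm7sf2* stands at -0.74 and -0.85, and the other 29 genes lie between -0.28 and 0.22.

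The difference between the Srrm2-KD effect at 72 h and at 24 h was tested as an interaction. It called none of the 30 genes and no gene of the table (0%). No member passed even an unadjusted p below 0.05 in edgeR, beside 1.64% of all genes, and DESeq2 and limma-voom called none. The 5 smallest p belonged to *Sqle* (0.29, standard error 0.17), *Ebp* (0.28, standard error 0.17), *Cyp51* (0.29, standard error 0.26), *Msmo1* (0.34, standard error 0.32) and *Fdps* (0.16, standard error 0.21), given as differences of log2 fold changes. *Fdps*, which makes farnesyl diphosphate, was at 176, 241 and 274 CPM at 24 h and 159.9, 283 and 240.1 CPM at 72 h in Gl2-KD, and at 179.8, 228 and 271 and then 162, 356 and 242 CPM in Srrm2-KD. *Sqle* at 72 h was at 118, 131 and 80.1 CPM in Gl2-KD and 129, 138 and 90.6 CPM in Srrm2-KD, higher in each experiment, whereas at 24 h it had been lower in each. *Ebp* at 24 h was at 31.6, 42.9 and 33.8 CPM in Gl2-KD and 29.2, 37.2 and 36.8 CPM in Srrm2-KD. The median difference was 0.04 over the 30 genes and -0.02 over all genes tested.

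Time was compared within each siRNA. In Gl2-KD, 2 of the 30 genes passed the test between 24 h and 72 h, both lower at 72 h, beside 1.45% of all genes called in any direction and 0.706% called lower. They were *Fasn*, the fatty acid synthase, and *Acaca*, the acetyl-CoA carboxylase that supplies its malonyl-CoA and sets the rate of the pathway. At an unadjusted p below 0.05, 6 of 30 were lower and none higher, beside 7.21% of all genes lower. Lower values in all 3 experiments were seen for 9 of the 30 genes, beside 16.2% of all genes, and for none of the 30 in the other direction. The median of the 9 fatty acid and desaturase genes was -0.26 and that of the 17 mevalonate and sterol genes -0.09, beside 0.02 over all genes.

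*Fasn* was at 145, 209 and 103 CPM at 24 h and at 102, 119 and 83.3 CPM at 72 h in Gl2-KD. *Acaca* was at 169, 104 and 82.3 CPM at 24 h and at 114, 72.0 and 63.1 CPM at 72 h. Both fell in each of the 3 experiments, although the groups overlap across experiments. On the log2 scale *Fasn* fell by 0.55 (standard error 0.11) and *Acaca* fell by 0.49 (standard error 0.10), and edgeR gave each an adjusted p of 0.0407. These folds left 68.3% and 71.0% of the level at 24 h. DESeq2 gave both genes an adjusted p of 6.48e-04 and also called *Scd1* and *Sqle*, both lower, among 1338 genes called in all. With limma-voom *Fasn* and *Acaca* were the only ones of the 30 called, among 482 genes in all. Both calls were lost without the experiment block, with the Gl2-KD libraries fitted alone, without any 1 of the 6 Gl2-KD libraries, without the Srrm2-KD library of experiment 2 at 24 h or of experiment 3 at 72 h, and without any 1 experiment. That of *Fasn* was also lost without experiment 2 of Srrm2-KD at 72 h. In the fits without a library or an experiment the log2 fold change of *Fasn* stayed between -0.67 and -0.40 and that of *Acaca* between -0.55 and -0.44.

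In Srrm2-KD none of the 30 genes passed the same test, beside 0.551% of all genes. DESeq2 called 4 of the 30, *Acaca*, *Fasn*, *Scd1* and *Scd2*, all lower, among 1061 genes called in all. With limma-voom *Acaca* and *Fasn* were called, among 259 genes in all. At an unadjusted p below 0.05 edgeR counted 5 of 30, all lower, beside 8.54% of all genes. *Fasn* was at 160.3, 182 and 126 CPM at 24 h and at 117, 121 and 84.6 CPM at 72 h. Its 3 libraries at 72 h lay below its 3 at 24 h, which in this direction held for 1 of the 30 genes and for 3.9% of all genes. *Acaca* was at 159.7, 93.4 and 90.9 CPM and then at 131, 63.3 and 58.3 CPM. The log2 differences of -0.54 for *Fasn* (standard error 0.11) and -0.49 for *Acaca* (standard error 0.10) missed the threshold in edgeR (adjusted p = 0.0642 and 0.0612). The difference of these changes from those in Gl2-KD was 0.01 (standard error 0.16) for *Fasn* and 0.0025 (standard error 0.14) for *Acaca*.

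The next 3 genes by p in Srrm2-KD were *Scd1*, *Scd2* and *Acly*. *Scd1* went from 223, 127 and 115 CPM at 24 h to 168, 98.0 and 82.6 CPM at 72 h. *Scd2* went from 995, 626 and 615 CPM to 755, 536 and 404 CPM, and *Acly* from 761, 598 and 536 CPM to 700.4, 482 and 410.2 CPM. In each experiment all 3 genes were lower at 72 h, although the groups overlapped. In that order the log2 differences were -0.42 (standard error 0.10), -0.41 (0.11) and -0.27 (0.09), and none passed in edgeR (adjusted p = 0.0843, 0.120 and 0.171). In all, 6 of the 30 genes were lower at 72 h in all 3 experiments in Srrm2-KD, beside 16.6% of all genes. In Gl2-KD the 3 libraries of *Srebf1* at 72 h (70.2, 75.7 and 77.0 CPM) lay below its 3 at 24 h (84.4, 81.2 and 77.8 CPM), as in 3.36% of all genes, with a log2 fold change of -0.13 (standard error 0.10). *Srebf2* had log2 fold changes over time of 0.05 (standard error 0.14) in Gl2-KD and -0.03 (standard error 0.14) in Srrm2-KD.

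**Figure D3:**
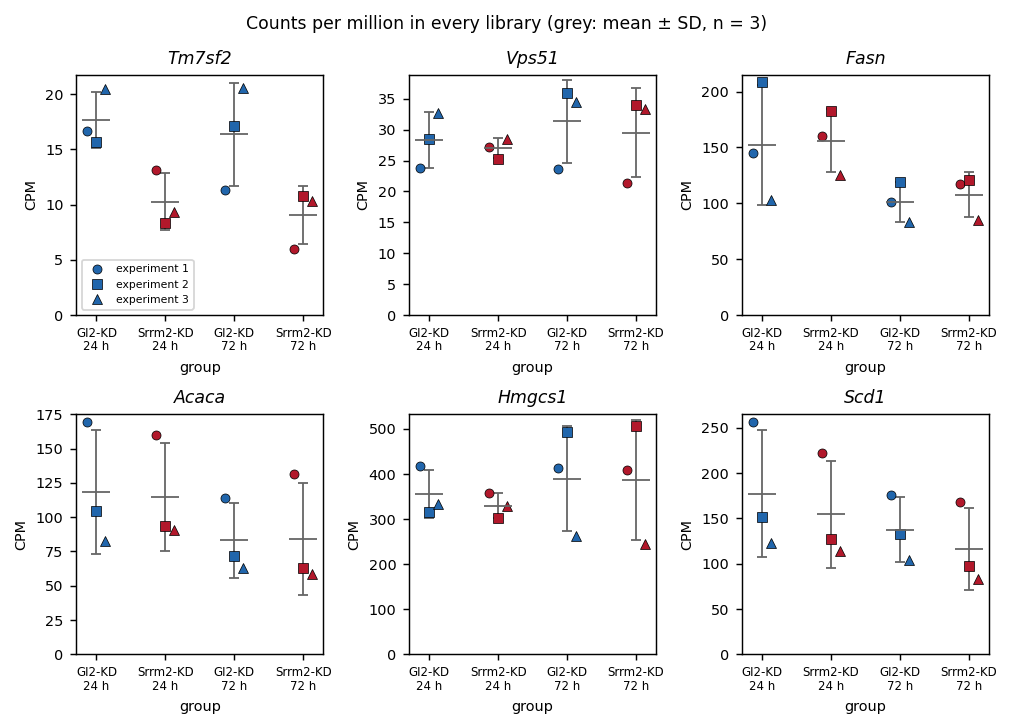
CPM of 6 genes in every library (points, shaped by experiment, blue for Gl2-KD and red for Srrm2-KD), with the mean and SD of each group of 3 in grey and axes from 0. *Tm7sf2* is lower in Srrm2-KD at both times while *Vps51* is not separated, *Fasn* and *Acaca* are lower at 72 h within each experiment, *Hmgcs1* at 72 h spreads from 245 to 507 CPM by experiment, and *Scd1* is highest in experiment 1 in every group.

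Of the other genes of lipid metabolism, 51 in 5 lists were read in the same fit. None of the 9 genes of SREBP handling, the 6 other isoprenoid and sterol enzymes, the 13 genes of fatty acid elongation and activation or the 12 of 13 fatty acid oxidation genes that were tested passed in any of the 4 comparisons of siRNA or time or in the interaction. Of the 10 genes of sterol transport and LXR, 1 passed, *Abcg1*, a sterol exporter that is switched on by the oxysterol receptor LXR. *Abcg1* was at 18.0, 16.1 and 37.1 CPM at 24 h and at 31.9, 27.5 and 59.7 CPM at 72 h in Gl2-KD. It rose in each of the 3 experiments, by 0.76 on the log2 scale (standard error 0.09, edgeR adjusted p = 0.0112). In Srrm2-KD *Abcg1* differed over time by 0.26 (standard error 0.09, edgeR adjusted p = 0.210), and the difference of -0.50 between these changes (standard error 0.13) did not pass (edgeR adjusted p = 1). In the test of experiment by time that is described further on, 2 of 9 genes of SREBP handling, none of 6 isoprenoid and sterol enzymes, 2 of 10 of sterol transport and LXR, 3 of 13 of elongation and activation and 3 of 12 of oxidation were called, beside 10.2% of all genes.

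The 3 experiments differed in the level of 20 of the 30 genes at an adjusted p below 0.05, which is 66.7% beside the 58.5% of all genes given above. The 5 smallest p belonged to *Acaca*, *Scd1*, *Fads1*, *Scd2* and *Acly*, all of fatty acid synthesis or desaturation. As means of the 4 libraries of an experiment, *Acaca* was at 144, 83.2 and 73.6 CPM in experiments 1, 2 and 3, and *Scd1* at 206, 128 and 106 CPM. *Fads1*, the delta-5 desaturase of polyunsaturated fatty acids, was at 72.1, 30.3 and 29.997 CPM, a span of 2.40-fold, *Scd2* at 886, 610.2 and 504 CPM, and *Acly* at 743, 577 and 481 CPM. All 5 were highest in experiment 1. By library, *Fads1* was at 80.5, 28.7 and 36.0 CPM in Gl2-KD and 76.4, 26.8 and 33.5 CPM in Srrm2-KD at 24 h, and at 58.6, 30.7 and 29.0 and 72.9, 35.0 and 21.5 CPM at 72 h, so that its 4 libraries of experiment 1 lay above the other 8. In Gl2-KD *Scd2* was at 1058, 641 and 574 CPM at 24 h and 735, 638 and 423 CPM at 72 h, and *Acly* was at 717, 558 and 426 CPM at 72 h. In edgeR their adjusted p-values lay between 1.18e-05 and 1.33e-04. *Fads2*, which precedes FADS1 in the same pathway, was at 94.6, 109 and 96.0 CPM and did not pass (adjusted p = 0.145 in edgeR's test). Without experiment 1, 8 of the 30 genes were called, and the calls over all genes went from 11356 of 19410 to 3387 of 18984. The labels do not say what else was shared within an experiment.

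Levels differed among experiments for 11 of the 17 mevalonate and sterol genes too, beside 58.5% of all genes. Of the 9 fatty acid and desaturase genes, 7 were called in that test. The sterol genes also showed a change over time that differed among experiments. The test of this change was added after the data were seen, as terms for experiment by time in the same fit. It called 14 of the 30 genes (46.7%) beside 10.2% of all genes. They were 3 early mevalonate genes (*Hmgcs1*, *Idi1*, *Fdps*), 7 of squalene and sterol synthesis (*Fdft1*, *Lss*, *Cyp51*, *Tm7sf2*, *Msmo1*, *Nsdhl*, *Dhcr7*), *Insig1* and *Stard4* of control and transport, and *Acss2* and *Elovl6* of fatty acid synthesis. None of the 4 desaturases passed. In experiment 2, 14 of the 17 mevalonate and sterol genes were higher at 72 h in Gl2-KD and 17 of 17 in Srrm2-KD, beside 51.7% and 50.9% of all genes. In experiment 3, 2 and 3 of the 17 were higher at 72 h, beside 51.4% and 52.2% of all genes. In experiment 1, 3 and 7 of the 17 were higher, beside 53.5% and 51.2% of all genes, so that the Srrm2-KD count there was closer to the share of all genes. Each such ratio rests on 1 library at 72 h and 1 at 24 h, which all 17 genes share.

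The median distance of the 17 genes from their own means ran from -0.05 to 0.11 on the log2 scale over the 6 libraries at 24 h. The genes did not move alike there. In experiments 1, 2 and 3 of Gl2-KD at 24 h, the early mevalonate genes had medians of -0.15, 0.12 and 0.19. Those of the squalene and sterol genes were 0.13, 0.08 and 0.01. At 72 h the median of the 17 genes was -0.10 and -0.17 in experiment 1, 0.24 and 0.28 in experiment 2 and -0.16 and -0.19 in experiment 3, for Gl2-KD and Srrm2-KD in that order. The 9 fatty acid and desaturase genes were lower at 72 h by median in each of the 3 experiments, with fitted log2 medians of -0.39, -0.07 and -0.37 over both siRNAs, beside 0.03, 0.02 and 0.02 over all genes. Those of the desaturases alone were -0.41, -0.02 and -0.41. For the 17 mevalonate and sterol genes they were -0.31, 0.23 and -0.27, so experiment 2 had the highest median in each of these sets.

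*Hmgcs1* had the smallest p. In experiments 1, 2 and 3 it was at 417, 316 and 334.5 CPM at 24 h and 412, 493 and 263 CPM at 72 h in Gl2-KD, and at 358, 302 and 329 and then 409, 507 and 245 CPM in Srrm2-KD. Its log2 ratio of 72 h over 24 h, fitted over both siRNAs, was 0.05, 0.66 and -0.43 in the 3 experiments (edgeR adjusted p = 0.00736). *Hmgcs1* was called in all 19 other settings of this test that were run, with adjusted p-values from 1.47e-11 to 0.0408 over edgeR, DESeq2 and limma-voom. In this test the Gl2-KD and Srrm2-KD libraries of the same experiment and time stand in as replicates, after the siRNA effect at each time. Its p-values thus measure the change against the spread between these libraries, and not against that of repeated experiments.

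*Cyp51*, the lanosterol demethylase, was at 127, 102 and 130.5 CPM at 24 h and 90.5, 137 and 108 CPM at 72 h in Gl2-KD, and at 109, 103 and 128 and then 94.4, 163 and 129 CPM in Srrm2-KD. *Msmo1*, the methylsterol monooxygenase that follows, was at 117, 98.2 and 117 and then 88.1, 141 and 96.6 CPM in Gl2-KD, and at 91.6, 98.5 and 110.5 and then 88.7, 191 and 95.1 CPM in Srrm2-KD. The fitted log2 ratios were -0.48, 0.41 and -0.27 for *Cyp51* and -0.37, 0.60 and -0.39 for *Msmo1*. For both genes the 72 h libraries of experiment 2 were the highest of all 12.

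*Idi1*, which interconverts the isoprenoid building blocks, was at 202, 192 and 172 and then 179, 213 and 118 CPM in Gl2-KD, and at 167, 185 and 168 and then 171, 231 and 116 CPM in Srrm2-KD. *Nsdhl*, which removes the C4 carboxyl group of sterols, was at 50.7, 41.6 and 35.8 and then 38.7, 45.9 and 29.5 CPM in Gl2-KD, and at 50.3, 39.5 and 36.5 and then 37.1, 46.2 and 29.0 CPM in Srrm2-KD. *Fdft1*, the squalene synthase, was at 146, 153 and 189.5 and then 149, 190.1 and 162 CPM in Gl2-KD, and at 142, 140.2 and 172 and then 142, 211 and 142 CPM in Srrm2-KD. All 3 were higher at 72 h in experiment 2 and lower in experiment 3 with either siRNA.

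*Stard4*, a carrier of cholesterol between membranes, was at 89.1, 61.4 and 63.5 and then 89.0, 79.6 and 49.2 CPM in Gl2-KD, and at 75.9, 58.1 and 62.9 and then 91.0, 81.6 and 46.6 CPM in Srrm2-KD. Its fitted log2 ratios were 0.08, 0.38 and -0.45. *Acss2* differed from most of the sterol genes in experiment 3. It was at 19.8, 13.7 and 18.5 and then 16.2, 17.5 and 23.4 CPM in Gl2-KD, and at 20.9, 13.9 and 16.7 and then 15.3, 15.5 and 22.5 CPM in Srrm2-KD. Its ratios were -0.32, 0.30 and 0.42, and those of *Elovl6* were -0.28, 0.33 and 0.31. Among the called sterol genes, *Tm7sf2* was also above 0 in experiment 3, with ratios of -0.83, 0.28 and 0.10.

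*Fasn*, with ratios of -0.48, -0.71 and -0.44, and *Acaca*, with -0.42, -0.55 and -0.51, did not pass this test (adjusted p = 0.442 and 0.815 in edgeR's test). *Srebf2* had ratios of -0.25, 0.09 and 0.30 (adjusted p = 0.104) and *Srebf1* of -0.24, -0.13 and -0.01 (adjusted p = 0.552), so neither passed. The number of the 30 genes called in this test fell to 1 without the Gl2-KD library of experiment 2 at 24 h, and to 2 without the Srrm2-KD library of experiment 2 or of experiment 3 at 24 h. Leaving out experiment 1 of Srrm2-KD at 24 h gave 5 and of Gl2-KD at 72 h gave 6, and 7 without any 1 of the Gl2-KD 24 h library of experiment 3 and the Srrm2-KD libraries of experiments 1 and 2 at 72 h. The number of all genes called fell with it, to between 277 and 1376 in these 8 fits from 1979. What set the experiments apart at 72 h was not tested.

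**Figure D4:**
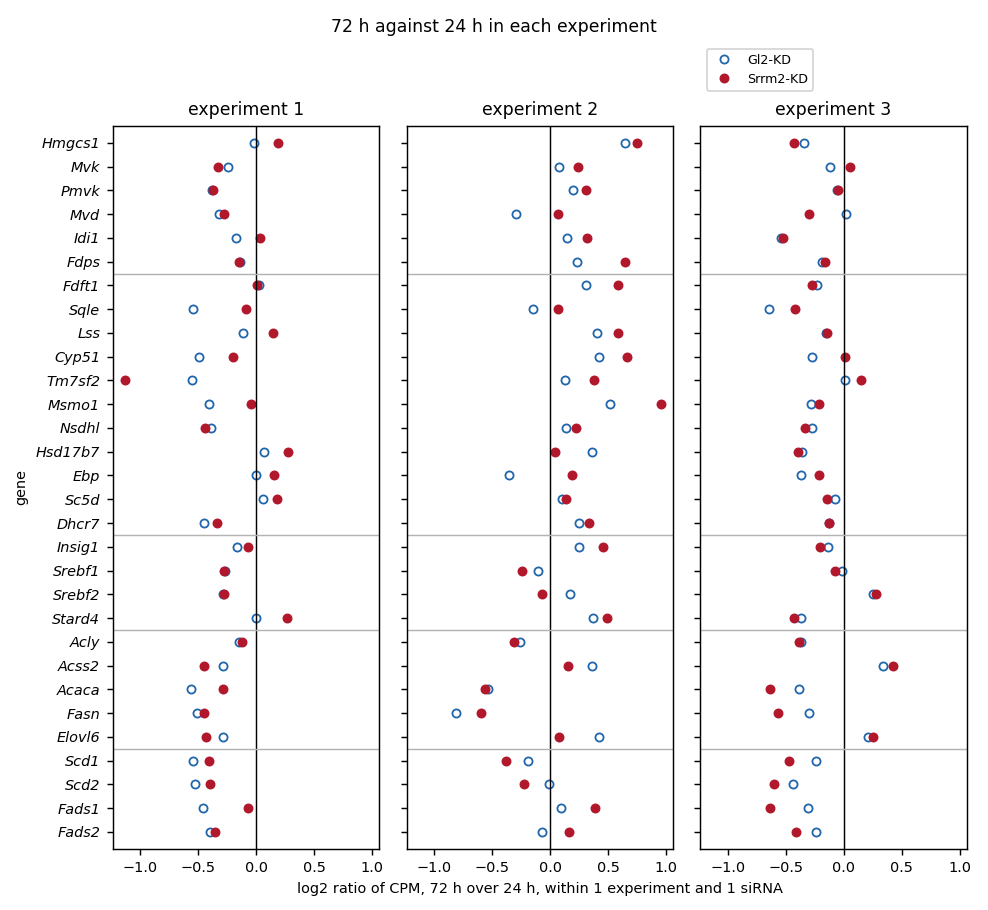
Log2 ratio of CPM at 72 h over 24 h for each of the 30 genes (rows) within experiments 1, 2 and 3 (panels), open blue for Gl2-KD and filled red for Srrm2-KD. The mevalonate and sterol genes lie mostly right of 0 in experiment 2 (14 and 17 of 17 genes) and left of 0 in experiment 3, with both siRNAs side by side. *Fasn*, *Acaca*, *Acly*, *Scd1*, *Scd2* and *Srebf1* lie left of 0 in all panels, *Scd2* only just (-0.007) in Gl2-KD of experiment 2.

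Some counts are shared with other genes. Exon bases on the same strand are shared with another gene for 4 of the 30, *Fdps*, *Tm7sf2*, *Srebf1* and *Scd2*, and on the opposite strand for 8, among them *Hmgcs1*, *Cyp51* and *Acss2*. The libraries were stranded, and whether strand was used in the pseudo-alignment is not stated.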

How the data were processed

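The authors pseudo-aligned 100-bp paired-end reads of TruSeq stranded polyA+ libraries to the mouse GENCODE M24 transcriptome (mm10) with kallisto 0.46.1 and deposited estimated counts per gene, not normalized, for 12 libraries. Here the estimated counts were rounded to whole numbers. Of 42450 identifiers, 42156 were matched to symbols of GENCODE M21 (GRCm38), and the 294 without one held 0.175% of the counts. Genes passed filterByExpr (minimum count 10, minimum total 15). All 12 libraries were fitted with edgeR 4.0.16 (R 4.3.3; TMM, glmQLFit with legacy=TRUE, glmQLFTest) with group terms and experiment as a block. A call needed a p below 0.05 after Benjamini-Hochberg adjustment across the 19410 genes that passed. Alternatives were DESeq2 1.42.0, limma 3.58.1 with voom, and those of the closing section.

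The authors' covariate was the RNA processing day, which no source used here gives for each library, so the experiment stands in its place. With group means removed, the 18 pairs of libraries of the same number correlated at 0.281 to 0.747 across genes, and the 36 pairs of unlike number and unlike group at -0.628 to 0.231. The methods call the replicates biological replicates. Totals of 73933196 to 153343831 limit counting error to little beside the common biological coefficient of variation of 0.22 (6 residual and 5.09 prior degrees of freedom).

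The 30 genes, their roles and the other lists were chosen with earlier results of these data known. Values in every library are given for genes called in a comparison (at most 8, by p), or else, and in the test among experiments, for the 5 with the smallest p. Genes of other lists are named where called. Ratios within an experiment are of CPM without a pseudocount. Some genes of these pathways are not reported here.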

Additional observations from a re-analysis of the deposited data

Results flagged for a closer look

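The change between 24 h and 72 h differed among experiments 1, 2 and 3 for 14 of the 30 genes, beside 10.2% of all genes. It stands here because edgeR's test of the experiment by time terms, added after the data were seen, put the adjusted p of these genes below 0.05. Mevalonate and sterol genes were mostly higher at 72 h in experiment 2 and lower in experiment 3, with either siRNA. The libraries of both siRNAs stood in as replicates within an experiment and time, so no experiment was itself repeated. What sets the experiments apart was not tested.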

How the results depend on the processing

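No siRNA comparison called any of the 30 genes in the settings tried, apart from *Tm7sf2* at 72 h: 1 gene was called there by DESeq2, with experiment and time combined into 1 replicate block, and with the 72 h libraries alone. Between 24 h and 72 h in Gl2-KD, 4 genes were called by DESeq2 in place of 2, and 0 with no replicate block or with each siRNA alone. The same comparison in Srrm2-KD called 4 in DESeq2 and 2 in limma-voom, with legacy=FALSE, without a filter on low counts and with at least 10 counts in every library, in place of 0. Without each library or experiment in turn, the calls ranged from 0 to 2 in Gl2-KD over time and from 8 to 22 for the difference among experiments. For the experiment by time terms, which were not fitted without an experiment, the calls ranged from 1 to 14 without each library. Without each library or experiment, the median log2 fold change of the 30 genes ranged from -0.153 to -0.0103 at 24 h, from -0.156 to 0.0432 at 72 h and from -0.0642 to 0.133 for the difference between them. Over time these medians ranged from -0.22 to -0.0019 in Gl2-KD and from -0.20 to 0.01 in Srrm2-KD. No called gene reversed. Of the values of single genes in the comparisons of siRNA and time and in the interaction, 3274 kept direction and call, 17 gained a call, 27 lost one, and 342 uncalled values changed sign. In the experiment by time test the 14 genes were called in 9 (*Insig1*) to 19 (*Hmgcs1*) of 19 other settings. Of all genes, DESeq2 called 542 at 72 h between siRNAs and the combined block of experiment and time 724, where the fit with 1 block per experiment called 0. Over time in Gl2-KD, 282 genes were called with the block for each experiment and 0 with no replicate block. Where a library is left out, the fit pools the spread of all groups. Depth limits little here, as the lowest value of any of the 30 genes is 6.0 CPM, in a library of 153343831 counts. Over all genes, the change with time was called for 1338 genes of Gl2-KD cells and 1061 of Srrm2-KD cells by DESeq2 (282 and 107 by edgeR), 476 and 176 with at least 10 counts, 624 and 279 with legacy=FALSE, 482 and 259 with limma-voom and 212 in Srrm2-KD without a filter. Between siRNAs, DESeq2 called 25 at 24 h, and at 72 h 42 were called without a filter, 323 with the 72 h libraries alone and 1 to 5 with limma-voom, legacy=FALSE or at least 10 counts. For the experiment by time terms the counts were 4265 in DESeq2 and 3221 with at least 10 counts, beside 1979.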
